A study of Mus musculus with 8 samples.

Results

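Cholesterol synthesis genes were followed in normal mouse intestine and in intestinal tumours. The 8 genes were Hmgcs1, Idi1, Fdps, Fdft1, Sqle, Lss, Cyp51 and Insig1, out of 18193 genes with a probe set of their own, and every probe set that the platform annotation gives to exactly 1 of them was taken, 21 of 45101. Of these 21 probe sets, 18 lay above the floor of 64.1 signal units on at least 2 arrays and 15 on all 8, and all 8 genes were tested. No member encodes an uptake protein. Uptake genes were described as a separate list.

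Cells build cholesterol from acetyl-CoA through mevalonate, isoprenoid diphosphates, squalene and lanosterol. When sterol in the endoplasmic reticulum is low, the transcription factor SREBP-2 is released from its anchor and switches on the genes of the route together; Insig proteins hold SREBP-2 back when sterol is high, and Insig1 is itself a target. In the intestine, epithelial cells both make cholesterol and absorb it, and proliferating cells need it for new membrane.

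The RNA came from C57BL/6 mice aged 110 days and was read on 8 Affymetrix arrays, with n = 1 array per group. The groups were tumors of colon and of small intestine (ileum) from ACKR2-/-ApcMin/+ mice and from ApcMin/+ mice, and non-tumor colon and small intestine from ACKR2-/- mice and from WT mice. ApcMin/+ mice carry a mutant allele of the tumour suppressor Apc and form intestinal tumours spontaneously. ACKR2, earlier called D6, is an atypical receptor that takes up inflammatory chemokines, and ACKR2-/- mice lack it. RNA was pooled within a genotype, the number of animals in a pool is not given in the sources used here, and the non-tumor tissue came from mice without the ApcMin/+ allele, so tumour and Apc genotype cannot be told apart. In bulk tissue, fewer cells of a type and less RNA per cell cannot be told apart either.

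The arrays had been scaled to 1 mean, while their median signals ran from 85.5 to 103 in the 4 arrays of mice lacking ACKR2 and from 115 to 133 in the 4 arrays with ACKR2 intact. The Ackr2 probe set used had signals of 122, 153, 76.4 and 71.3 in the ACKR2-/- arrays (colon tumors, colon, small intestine tumors, small intestine), against 107, 116, 90.7 and 107 in the ACKR2 intact arrays of the same tissues. Its place relative to the deleted part is not known here, so it does not check the genotype. Ileal markers separated the tissues as labelled: Fabp6 had 26097 to 39468 in the small intestine arrays and 90.4 to 324 in the colon arrays, and Slc10a2 had 781 to 3592 and 6.90 to 70.7. The WT small intestine array went partly against its label. It had a signal of 18864 for the colon marker Car1, against 42.3 to 114 in the other small intestine arrays, and 958 for Aqp8, against 105 to 122, but 1.23 for Hoxb13, which had 1866 to 9039 in the colon arrays. Comparisons within small intestine, those of non-tumor colon with small intestine, and those of ACKR2-/- with WT tissue rest partly on this array. It also enters the spread behind the p-values of every comparison, those within colon included. For the tumor effect of the 8 genes in small intestine the ACKR2-/- pair alone is also given, but its arrays differed in small-intestinal enterocyte markers. In ACKR2-/-ApcMin/+ tumors, ApcMin/+ tumors, ACKR2-/- and WT small intestine, Fabp1 had 28571, 1988, 5586 and 22806. Lct had 11637, 1406, 5084 and 13572 on these arrays, and Fabp2 varied less, with 39564, 28917, 37782 and 39165. The sums of 10 such markers were 203150, 100772, 139843 and 191309. The pools differed in sex: Eif2s3y, a Y-linked gene, had signals of 2.92 and 2.66 in WT colon and WT small intestine and 888 to 1501 in the other 6 arrays. Xist, which marks female cells, had 77.9 and 127 in the ACKR2-/-ApcMin/+ colon and small intestine tumors. It had 2954 and 4827 in ApcMin/+ tumors, 4522 and 2818 in ACKR2-/- tissue and 9809 and 7807 in WT tissue. The tumour pairs and the ACKR2 pairs thus differed in the sex makeup of the pools.

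The regions just before the starts of the genes are shown because SREBP-2 is known to act there together with NF-Y and Sp1. RefSeq promoter sequences (GRCm38.p6) matched 5 of the 8 genes, Hmgcs1, Idi1, Lss, Cyp51 and Insig1, and Fdps, Fdft1 and Sqle had no entry in the table used. Each window is the 250 bases before the annotated start, read on the gene's own strand, 5′ to 3′. Capitals mark TCACNCCAC (a sterol element), CCAAT (the NF-Y box) and GGGCGG (the Sp1 box) on either strand, so that ATTGG and CCGCCC are the NF-Y and Sp1 boxes of the opposite strand. The 3 genes printed are the enzyme with the sterol element, the sterol-synthesis enzyme that rose in colon tumors and was lower in normal colon, and the feedback gene that behaved unlike the enzymes.
Hmgcs1, chr13:119690101-119690350, + strand: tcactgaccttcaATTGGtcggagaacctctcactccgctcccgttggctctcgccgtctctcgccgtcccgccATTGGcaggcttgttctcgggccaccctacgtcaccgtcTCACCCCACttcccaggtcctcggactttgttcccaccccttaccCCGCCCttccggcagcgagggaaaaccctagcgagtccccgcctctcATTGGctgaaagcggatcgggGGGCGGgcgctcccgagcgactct
Cyp51, chr5:4104698-4104947, - strand: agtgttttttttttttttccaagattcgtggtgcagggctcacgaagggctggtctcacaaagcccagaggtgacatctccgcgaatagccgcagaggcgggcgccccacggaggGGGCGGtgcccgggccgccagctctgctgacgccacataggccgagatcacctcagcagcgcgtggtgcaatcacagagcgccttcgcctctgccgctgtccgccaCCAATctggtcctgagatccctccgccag
Insig1, chr5:28071162-28071411, + strand: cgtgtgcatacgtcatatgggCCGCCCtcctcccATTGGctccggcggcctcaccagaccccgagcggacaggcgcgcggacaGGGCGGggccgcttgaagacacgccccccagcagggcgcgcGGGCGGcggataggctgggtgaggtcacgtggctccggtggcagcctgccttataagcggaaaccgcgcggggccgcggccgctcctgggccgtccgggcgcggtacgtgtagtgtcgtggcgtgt

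All 5 windows held both CCAAT and GGGCGG, a combination found in 11.0% of 32851 promoter windows of the same length (33.8% with CCAAT and 32.7% with GGGCGG). The sterol element TCACNCCAC was found in 1 of the 5, in Hmgcs1, where it begins 137 bases before the start; 1.05% of all windows held it. The looser form CACNCCAC, which the longer form contains, was found in Hmgcs1 and Insig1, 2 of 5 windows, and in 5.29% of all. Hmgcs1 held CCAAT boxes that begin 237, 176 and 45 bases before the start, and Cyp51 held its CCAAT box 29 bases before the start. No other motifs overlapped in these windows. A match is a run of letters and not a measured binding site, and a window without one says nothing about SREBP-2.

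In colon tumors Fdps rose 3.19-fold, Fdft1 2.14-fold and Cyp51 1.84-fold over non-tumor colon, so that 3 of 8 genes rose and 0 fell, where 11.0% of all 14023 tested genes rose and 12.6% fell (limma, Benjamini-Hochberg adjusted p under 0.05). The median log2 difference of the 8 genes was 0.52, beside a median of 0.00 over all genes. In 6 of 8 genes both colon tumor arrays lay above both non-tumor colon arrays, which was so for 26.4% of all genes. In small intestine, by the probe sets used, Fdps was higher and Hmgcs1 lower in both tumor arrays than in both non-tumor arrays, as were 23.2% and 14.9% of all genes. There 0 of 8 genes passed, where 2.77% of all genes rose and 1.20% fell, and the median log2 difference was 0.10 beside 0.04 over all genes. The p-values rest on how far the ACKR2 effect differs between the tissues and on no replicate animals, and with any array left out no tumour effect was called for a member or for any of the 14023 genes.

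**Figure D1:**
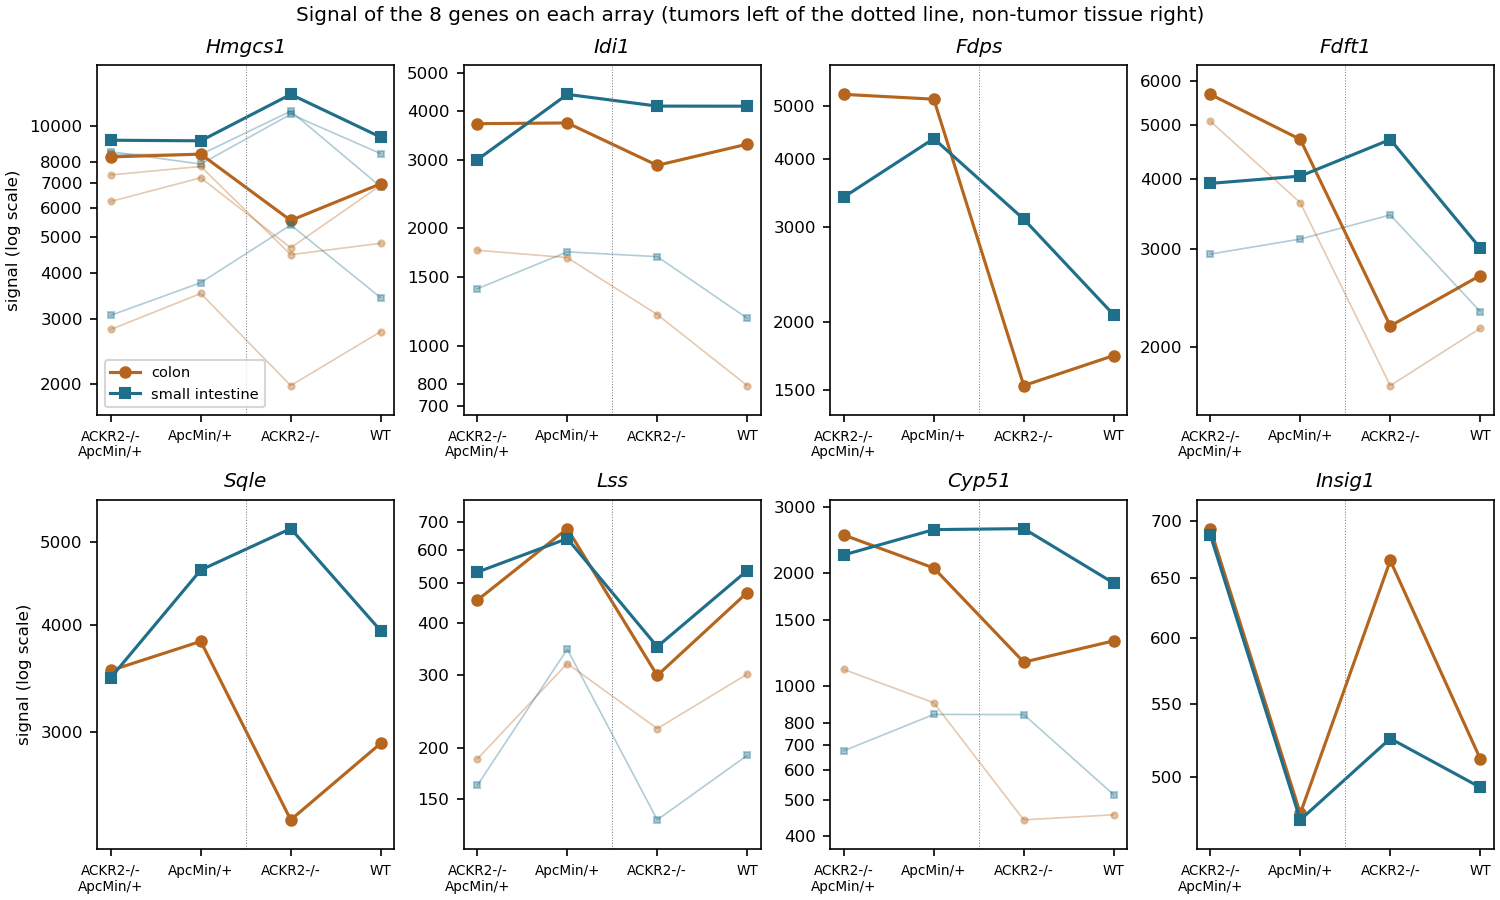
Signal on each array (log scale, 1 panel per gene with its own range) for ACKR2-/-ApcMin/+ and ApcMin/+ tumors, left of the dotted line, and ACKR2-/- and WT non-tumor tissue, right of it. Strong points are the probe set used for the gene and faint points are its other probe sets above the floor on all 8 arrays; brown circles are colon and blue squares small intestine. Fdps had 5260.2 and 5154 in colon tumors, against 1531 and 1738 in non-tumor colon, and Insig1 was higher in ACKR2-/- arrays than in the ACKR2 intact arrays beside them.

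At the head of the route stands Hmgcs1, the cytosolic HMG-CoA synthase, an early enzyme on the way to mevalonate. Hmgcs1 had signals of 8232 and 8375 in ACKR2-/-ApcMin/+ and ApcMin/+ colon tumors, against 5544 and 6965 in ACKR2-/- and WT colon. The tumor arrays were the higher ones in both pairs and the groups did not overlap, but the log2 difference of 0.42 ± 0.20 (standard error, as for all ± values below) did not pass (limma adjusted p = 0.194). In small intestine the order was the opposite by the probe set used. Hmgcs1 had 9132 and 9099 in ACKR2-/-ApcMin/+ and ApcMin/+ tumors, against 12148 and 9309 in ACKR2-/- and WT small intestine. The ACKR2-/- small intestine was the highest array of all 8, and the log2 difference between tumors and non-tumor tissue was -0.22 ± 0.20 (adjusted p = 0.601), with -0.41 in the ACKR2-/- pair alone. The difference between the tumor effects of the tissues, colon minus small intestine, was 0.64 ± 0.29 (adjusted p = 0.303).

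The 3 other bright probe sets of Hmgcs1 gave the same order of tumor and non-tumor colon within each ACKR2 pair, with log2 differences between 0.07 and 0.72. In small intestine they gave -0.34, -0.39 and -0.81 in the ACKR2-/- pair. In the ACKR2 intact pair they disagreed, at -0.09, 0.29 and 0.14. The fifth probe set was dim, with signals of 51.1 to 294.

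Next along the route, Idi1 encodes the isomerase that converts isopentenyl diphosphate to its reactive partner. It had signals of 3708 and 3724 in ACKR2-/-ApcMin/+ and ApcMin/+ colon tumors, against 2900.3 and 3286 in ACKR2-/- and WT colon. It had 2998 and 4408 in the small intestine tumors of the same genotypes, against 4113 and 4111 in ACKR2-/- and WT small intestine. Colon tumors lay above colon without overlap, whereas the small intestine tumors lay on either side of the non-tumor arrays. The log2 differences were 0.27 ± 0.18 in colon and -0.18 ± 0.18 in small intestine (adjusted p = 0.324 and 0.631), and the small intestine pair of ACKR2-/- mice alone gave -0.46. The other Idi1 probe set went further in colon: it had 1758 and 1683 in tumors, against 1203 and 792 in non-tumor colon, a log2 difference of 0.82 (adjusted p = 0.0234 in a fit of every probe set).

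Fdps, the farnesyl diphosphate synthase whose product feeds squalene and also the lipid anchors of proteins such as Ras, moved most. It had signals of 5260.2 and 5154 in ACKR2-/-ApcMin/+ and ApcMin/+ colon tumors, against 1531 and 1738 in ACKR2-/- and WT colon. The log2 difference was 1.67 ± 0.22 (limma adjusted p = 0.00585), with 1.78 in the ACKR2-/- pair and 1.57 in the ACKR2 intact pair. Fdps was the 1 member at least 2-fold higher in both colon pairs, which 4.86% of all genes were; at 1.5-fold there were 3 members, Fdps, Fdft1 and Cyp51, and 11.3% of all genes. In small intestine it had 3404 and 4361 in ACKR2-/-ApcMin/+ and ApcMin/+ tumors, against 3099 and 2066 in ACKR2-/- and WT tissue. The tumors were again the higher arrays, with a log2 difference of 0.61 ± 0.22 that did not pass (adjusted p = 0.197; it was the 1 member there with an unadjusted p under 0.05), and all 4 tumor arrays lay above all 4 non-tumor arrays, as for 6.78% of all genes. The ACKR2-/- pair alone, which does not use the WT small intestine array, differed by 0.14. Averaged over both tissues the log2 difference was 1.14 ± 0.15 (adjusted p = 0.00618). By the probe sets used, Fdps was then the 1 of 8 genes that passed, where 13.1% of all genes rose and 12.0% fell. In a fit of every probe set, another probe set of Idi1 (0.48, limma adjusted p = 0.0354) and of Cyp51 (0.68, adjusted p = 0.0475) passed too. The ones used for these genes did not (0.04 and 0.50, adjusted p = 0.834 and 0.0662).

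Fdft1 is squalene synthase, the enzyme that commits farnesyl diphosphate to sterol. It had signals of 5678 and 4715 in ACKR2-/-ApcMin/+ and ApcMin/+ colon tumors, against 2182 and 2688 in ACKR2-/- and WT colon. It had 3932 and 4052 in the small intestine tumors of these genotypes, against 4713 and 3009 in ACKR2-/- and WT small intestine. Colon tumors did not overlap colon, with a log2 difference of 1.10 ± 0.24 (adjusted p = 0.0248), and a second bright probe set gave 1.16 (adjusted p = 0.0281 in the fit of every probe set). The small intestine tumors lay between the non-tumor arrays, with a log2 difference of 0.08 ± 0.24 (adjusted p = 0.897) and -0.26 in the ACKR2-/- pair alone. Without the ACKR2-/- colon array the colon difference was 0.62, and without the WT colon array 1.57. The mean of all its probe sets, of which 2 were dim, gave 0.56 and did not pass.

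Sqle encodes squalene epoxidase, an oxygen-requiring and rate-limiting step. Its 1 probe set had 3542 and 3831 in ACKR2-/-ApcMin/+ and ApcMin/+ colon tumors, against 2369 and 2911 in ACKR2-/- and WT colon. It had 3474 and 4642 in the small intestine tumors, against 5189 and 3942 in ACKR2-/- and WT small intestine. Colon tumors were higher in both pairs, by 0.58 and 0.40 on the log2 scale, without passing the test (0.49 ± 0.20, adjusted p = 0.135). In small intestine the pairs disagreed, with -0.58 in the ACKR2-/- pair and 0.24 in the ACKR2 intact pair.

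Lss, the cyclase that folds oxidosqualene into lanosterol, was the dimmest enzyme. It had signals of 454 and 676 in ACKR2-/-ApcMin/+ and ApcMin/+ colon tumors, against 299 and 474 in ACKR2-/- and WT colon. It had 531 and 639.6 in the small intestine tumors, against 351 and 536 in ACKR2-/- and WT small intestine. Within each tissue and tumour state the ACKR2-/- array was the lower one, so the tumor and non-tumor arrays overlapped. Log2 differences between tumors and non-tumor tissue were 0.56 ± 0.21 in colon and 0.43 ± 0.21 in small intestine (adjusted p = 0.114 and 0.332), with 0.60 in the small intestine pair of ACKR2-/- mice alone. The other bright Lss probe set gave -0.08 in colon, so the probe sets of this gene do not show 1 direction there.

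Cyp51, the cytochrome P450 that demethylates lanosterol, had signals of 2523 and 2063 in ACKR2-/-ApcMin/+ and ApcMin/+ colon tumors, against 1160.4 and 1322 in ACKR2-/- and WT colon. It had 2235 and 2608 in the small intestine tumors, against 2623 and 1881 in ACKR2-/- and WT small intestine. Colon tumors did not overlap colon (log2 difference 0.88 ± 0.22, adjusted p = 0.0332), and its other probe sets gave 1.16 and 0.86 in the fit of every probe set (adjusted p = 0.0302 and 0.0931). In small intestine the tumor arrays lay within the range of the non-tumor arrays, at 0.12 ± 0.22 and, in the ACKR2-/- pair alone, at -0.23. Without the ACKR2-/- colon array the colon difference was 0.55 (1.22 without the WT colon array), and the call was also lost without the variance trend.

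Insig1, which encodes the sterol-sensing anchor protein and not an enzyme, did not follow the others. It had signals of 693 and 476 in ACKR2-/-ApcMin/+ and ApcMin/+ colon tumors, against 665 and 512 in ACKR2-/- and WT colon. It had 688 and 472 in the small intestine tumors, against 526 and 493 in ACKR2-/- and WT small intestine. Tumors and non-tumor tissue overlapped in both tissues, with log2 differences of -0.02 ± 0.20 in colon and 0.16 ± 0.20 in small intestine (adjusted p = 0.975 and 0.710), and the ACKR2-/- pair of small intestine alone gave 0.39. The 4 arrays lacking ACKR2 were the 4 highest.

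**Figure D2:**
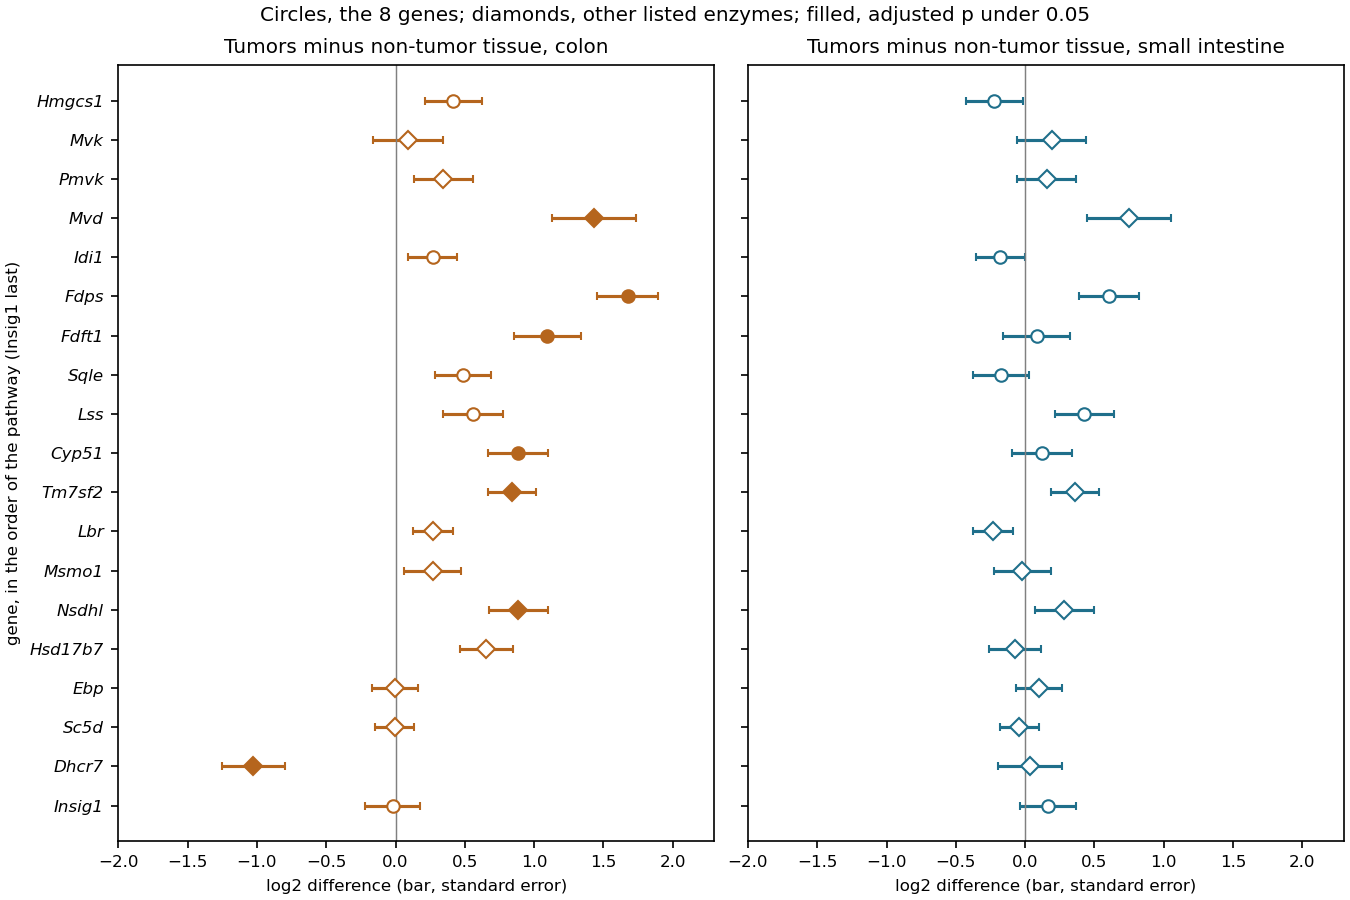
Log2 difference between tumors and non-tumor tissue for each enzyme in the order of the route, with Insig1 last (bar, standard error from the limma model, 8 arrays), in colon on the left and small intestine on the right. Circles are the 8 genes, diamonds the other enzymes of the list, and filled symbols have an adjusted p under 0.05; in colon Mvd, Fdps, Fdft1, Cyp51, Tm7sf2 and Nsdhl are filled above 0 and Dhcr7 below it, and in small intestine no symbol is filled.

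Other enzymes of the route showed a mixed picture in colon tumors. Of 11 tested, 3 rose and 1 fell, with a median of 0.27, where 11.0% of all genes rose and 12.6% fell. Mvd, the mevalonate diphosphate decarboxylase that acts just before Idi1, had 926 and 866 in colon tumors, against 257 and 427 in colon (log2 difference 1.43 ± 0.30, adjusted p = 0.0223). Nsdhl and Tm7sf2, which act after Cyp51, rose by 0.89 and 0.84 (adjusted p = 0.0310 and 0.0203). Dhcr7, the reductase of the last step, went the other way: it had 566 and 1069 in colon tumors, against 1198 and 2093 in colon (-1.03 ± 0.23, adjusted p = 0.0260). Both tumor arrays lay below both colon arrays, with the share of all genes not counted. In small intestine 0 of these 11 enzymes passed, and Dhcr7 was at 0.03 ± 0.23.

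Of the genes that regulate the route, Srebf2, Srebf1 and Insig2 did not pass in either tissue taken alone. Srebf2, the gene of SREBP-2, had 1059.7 and 1424 in ACKR2-/-ApcMin/+ and ApcMin/+ colon tumors, against 542 and 1856 in ACKR2-/- and WT colon. The non-tumor arrays bracketed the tumors, and the log2 difference was 0.29 ± 0.22 (adjusted p = 0.386), with -0.25 ± 0.22 in small intestine (adjusted p = 0.579). Srebf1, whose products act mainly on fatty acid genes, was at 0.47 ± 0.18 in colon and 0.55 ± 0.18 in small intestine (adjusted p = 0.117 and 0.175), and Insig2 at -0.37 ± 0.17 and -0.64 ± 0.17 (adjusted p = 0.159 and 0.103). Averaged over both tissues Srebf1 rose (0.51 ± 0.13, adjusted p = 0.0358) and Insig2 fell (-0.50 ± 0.12, adjusted p = 0.0275). Among the 10 tested genes of sterol sensing and receptor turnover 1 rose and 3 fell in colon tumors, where 11.0% of all genes rose and 12.6% fell. Mbtps2, a protease that releases SREBP from the membrane, rose by 0.78 (adjusted p = 0.0462). Erlin1, which restrains SREBP activation, fell by 1.05 on the log2 scale (adjusted p = 0.00724), as it did in small intestine tumors by 0.87 (adjusted p = 0.0359), and the ubiquitin ligase genes Rnf139 and Mylip fell by 0.61 and 0.60 in colon (adjusted p = 0.0335 and 0.04999).

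Uptake genes rose in 3 of 10 cases in colon tumors and fell in 0, where 11.0% of all genes rose and 12.6% fell. Lrp8, a lipoprotein receptor, had 242 and 363 in colon tumors, against 46.7 and 77.1 in colon, where the ACKR2-/- array was under the floor, so that the fold is understated (log2 difference 2.08 ± 0.26, adjusted p = 0.00553). Its relative Vldlr had 949 and 950.3, against 649 and 404 (0.89 ± 0.20, adjusted p = 0.0253). Tmem97, an endoplasmic reticulum protein that responds to sterol and binds NPC1, had 1029 and 894, against 369.8 and 381 (1.35 ± 0.24, adjusted p = 0.0140). In small intestine 0 of the 10 passed, with Lrp8 at 1.196 ± 0.26 (adjusted p = 0.0690).

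Of 9 tested genes of cholesterol efflux, esterification and the sterol sensor LXR, 2 fell and 0 rose in colon tumors, with a median log2 difference of -0.07. In the same comparison 11.0% of all genes rose and 12.6% fell. Abcg5, which with Abcg8 returns sterols to the gut lumen, fell by 2.15 (adjusted p = 0.00197), and Nr1h3, the sterol sensor LXR alpha, by 1.46 (adjusted p = 0.0155). In small intestine tumors Abcg5 fell by 0.90 (adjusted p = 0.0488), and without the WT small intestine array Abcg5 was at -1.08 and Erlin1 at -0.90, neither called. Abca1, the cholesterol exporter of most cells, was at 1.252 ± 0.41 in colon and -0.000581 ± 0.41 in small intestine (adjusted p = 0.0741 and 1). Of 13 fatty acid genes 2 rose in colon tumors, Fads1 by 1.47 and Fasn, the fatty acid synthase, by 1.14 (adjusted p = 0.00698 and 0.0114). In the same list Acss2, Gpam and Acly fell by 1.59, 0.61 and 0.57 (adjusted p = 0.00654, 0.0347 and 0.0458), and Scd1 was at -0.37 ± 0.19 (adjusted p = 0.200). The non-sterol branches of the mevalonate route, which make ubiquinone, dolichol and prenyl groups, had 0 of 9 genes past the test in either tissue, with medians of 0.12 in both. Of 7 genes of ileal bile acid handling, Fabp6 and Nr1h4 fell in colon tumors, by 1.34 and 1.03 (adjusted p = 0.00810 and 0.0381). In small intestine 0 of 13 fatty acid genes and 0 of 7 bile acid genes passed; Fasn was at 0.49 ± 0.19 and Scd1 at -0.38 ± 0.19 (adjusted p = 0.225 and 0.318).

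Tissue makeup moved with the colon comparison, in which 11.0% of all genes rose and 12.6% fell. The summed signal of 9 smooth muscle markers was 8428 and 32696 in ACKR2-/-ApcMin/+ and ApcMin/+ colon tumors, against 103684 and 122974 in ACKR2-/- and WT colon, and 9 of 9 fell. The tumor pools thus carried far less muscle signal, Myh11 having 125 and 2523 against 14454 and 16977. The sum of 8 epithelial markers differed less, at 112244 and 108041 in colon tumors and 111204 and 123015 in colon, where 1 of 8 rose and 0 fell; Epcam had 15828.5 to 21502 over the 8 arrays. Of 9 colon markers 5 fell and 0 rose, with a median of -2.04 and sums of 39920 and 55930.3 in colon tumors, against 97334 and 110859 in colon. The sum of 10 proliferation markers was 36340.5 and 30329 in colon tumors, against 13409 and 13405.5 in colon, and 9 of 10 rose, Mki67 having 4303 and 3152 against 1406 and 1860. Of 7 leukocyte markers 1 fell and 0 rose, with sums of 2157 and 2210.4 against 1705 and 2420.2, and 1 of 3 tested adipocyte markers fell, with sums over 4 markers of 538 and 1072 against 2234 and 5833. The part of muscle, proliferation and colon markers in the higher signals of Fdps, Fdft1, Cyp51 and the other genes was not tested. Xist, expressed from the silenced X, had 77.9 and 2954 in colon tumors, against 4522 and 9809 in colon; the part of sex was not tested either.

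In small intestine, where 2.77% of all genes rose and 1.20% fell, the muscle and proliferation markers moved less, and the leukocyte markers moved more. The smooth muscle sum was 8717 and 22046 in ACKR2-/-ApcMin/+ and ApcMin/+ tumors, against 55809 and 52992 in ACKR2-/- and WT small intestine, and 6 of 9 fell. The proliferation sum was 26244.5 and 27286, against 21691 and 17550.1, and 0 of 10 passed. Leukocyte markers summed to 12260.3 and 8485 in tumors, against 2664 and 3505, and 3 of 7 rose. The proliferation sums of the 4 tumor arrays lay above those of the 4 non-tumor arrays, as did those of Fdps and of no other member.

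**Figure D3:**
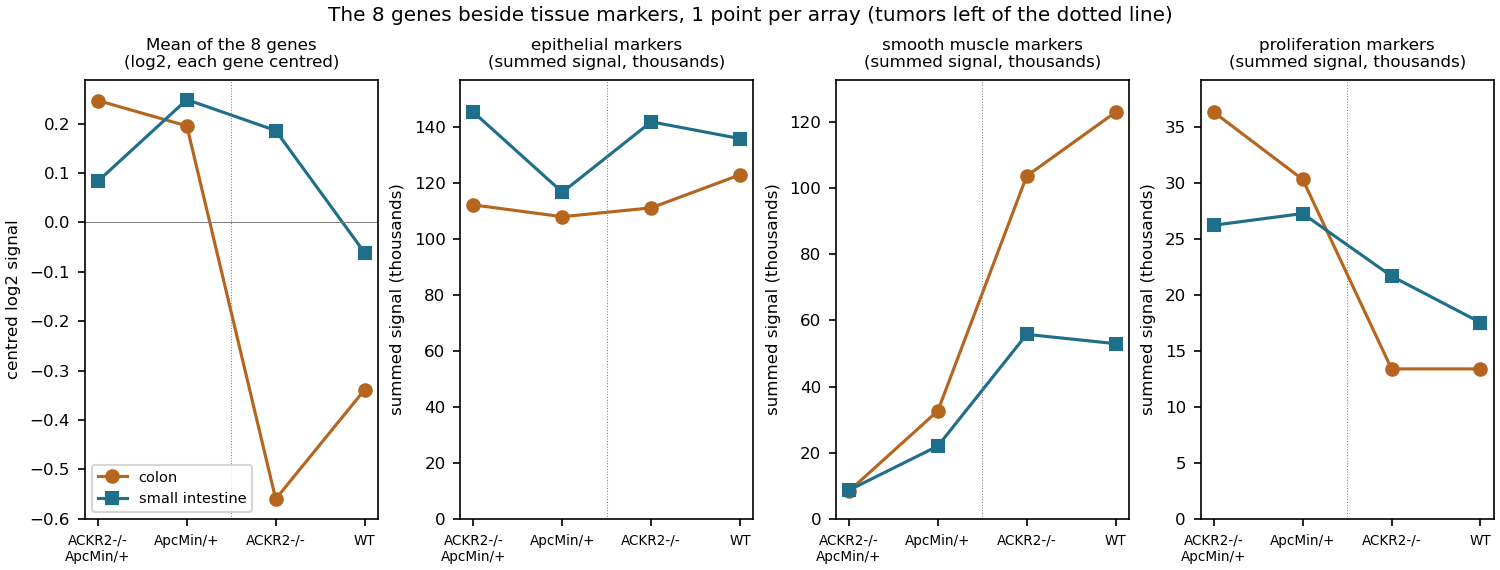
One point per array, ordered as ACKR2-/-ApcMin/+ and ApcMin/+ tumors, then ACKR2-/- and WT non-tumor tissue, with brown circles for colon and blue squares for small intestine. The left panel is the mean of the 8 genes after each was centred on its own mean (log2), lowest at -0.56 in ACKR2-/- colon; the others are summed marker signals, with smooth muscle lowest in the ACKR2-/-ApcMin/+ tumors and proliferation lowest in non-tumor colon.

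The tumor effect of the 8 genes tended to be larger in colon, but this was not established by the test of the difference. Their median difference between the tumor effects, colon minus small intestine, was 0.65 on the log2 scale, beside -0.07 over all genes. Above 0 were 7 of 8, against 6271 of all 14023 genes. None of the 8 passed, where 0.735% of all genes passed as higher and 1.52% as lower. At an unadjusted p under 0.05 there were Fdps (1.07 ± 0.31, adjusted p = 0.144), Fdft1 (1.01 ± 0.34, adjusted p = 0.189) and Cyp51 (0.76 ± 0.31, adjusted p = 0.255). In the ACKR2-/- mice the colon pair had 8 of 8 genes above 0 with a median of 0.59 (48.7% of all genes above 0). The small intestine pair had 3 above and 5 below with a median of -0.25 (49.7% and 44.2% of all genes). In the ACKR2 intact mice the colon pair had 7 of 8 above 0 with a median of 0.45 (46.8% of all genes above 0). The small intestine pair had 6 of 8 with a median of 0.25 (54.1% of all genes), so in these mice the medians stood closer. The second small intestine pair rests on the WT array with the Car1 signal.

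**Figure D4:**
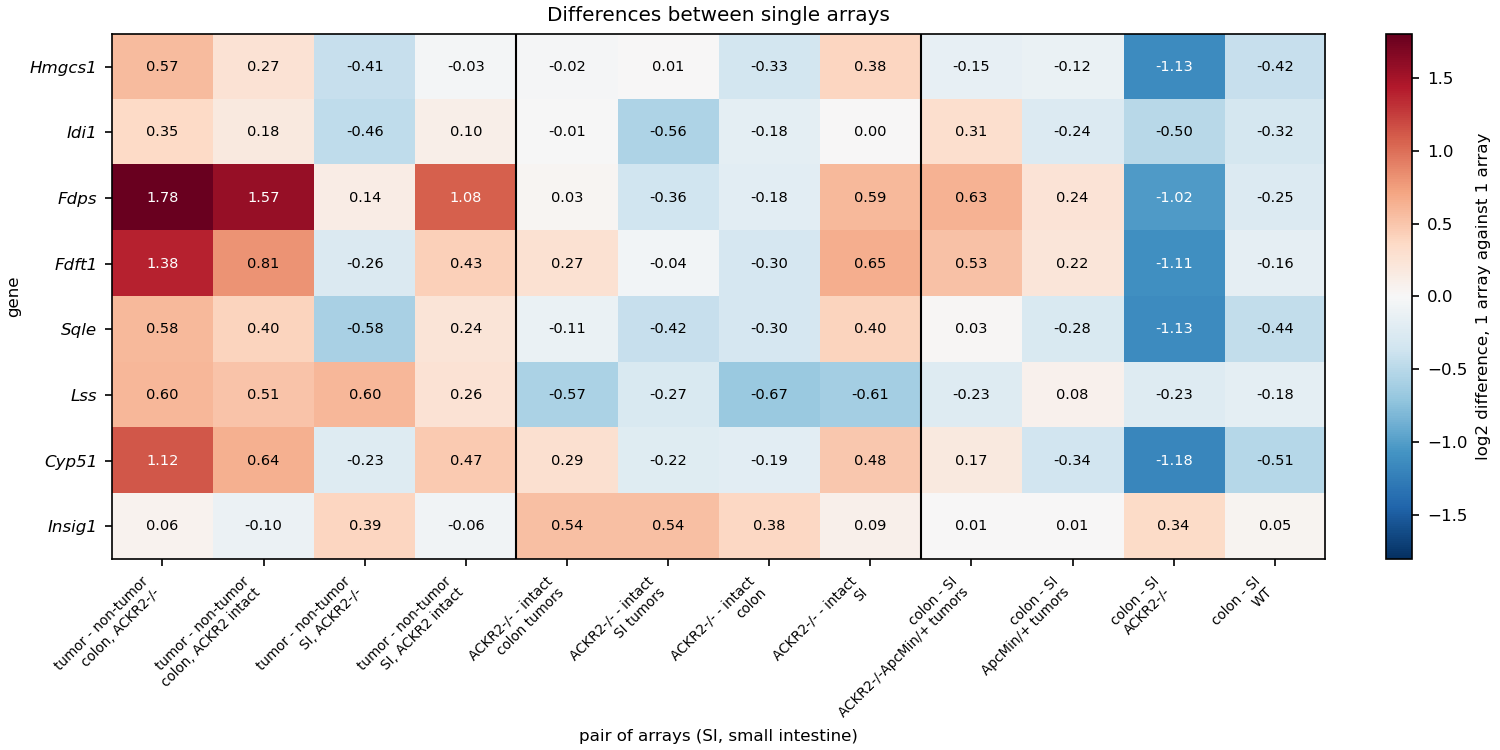
Log2 differences of the 8 genes for 12 pairs of arrays that share 2 of tissue, tumour state and ACKR2 genotype. The tumour pairs differ in the ApcMin/+ allele too, and the tumour and ACKR2 pairs differ in sex. There is no error since each pair is 1 array against 1 array. The first 4 columns are tumors minus non-tumor tissue, the next 4 ACKR2-/- minus ACKR2 intact, and the last 4 colon minus small intestine; Fdps stands at 1.78 and 1.57 in the colon tumor pairs, and 5 genes stand below -1 between ACKR2-/- colon and ACKR2-/- small intestine.

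In non-tumor tissue 3 enzymes of the route were lower in colon than in small intestine. Hmgcs1 differed by -0.78 ± 0.20, Sqle by -0.78 ± 0.20 and Cyp51 by -0.84 ± 0.22 on the log2 scale, colon minus small intestine (limma adjusted p = 0.0442, 0.0411 and 0.0407), so 3 of 8 genes were lower in colon and 0 higher, where 8.40% of all genes were lower and 13.0% higher. The calls are not firm: 0 members passed with the mean of all probe sets, without the variance trend or with no filter, and 1 passed with quantile normalization. With every probe set fitted on its own, 1 passed by the probe sets used. In that fit another Hmgcs1 probe set passed too (-0.90, limma adjusted p = 0.0374), while the one used did not (-0.78, adjusted p = 0.0520). The median of the 8 genes was -0.64, beside 0.11 over all genes. In 6 of 8, Hmgcs1, Idi1, Fdps, Fdft1, Sqle and Cyp51, both colon arrays lay below both small intestine arrays, as for 18.6% of all genes. Fdps differed by -0.63 ± 0.22, Fdft1 by -0.64 ± 0.24 and Idi1 by -0.41 ± 0.18 without passing (adjusted p = 0.0909, 0.115 and 0.151). Lss was at -0.20 ± 0.21, with 0.69 at its other bright probe set, and Insig1 at 0.20 ± 0.20.

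The gap between the tissues, from 1 pair of arrays per genotype and with no test, was as follows. Between ACKR2-/- colon and ACKR2-/- small intestine the median of the 8 genes was -1.06, and 5 of 8 were at least 2-fold lower in colon, against 7.41% of all genes in that pair. Between WT colon and WT small intestine the median was -0.29, and 0 of 8 were 2-fold lower, against 6.57% of all genes; that pair uses the WT small intestine array with the colon-like Car1 signal. The ACKR2-/- pair is also the value without the WT small intestine array. Without the ACKR2-/- colon array, or without the ACKR2-/- small intestine array, Hmgcs1, Sqle and Cyp51 were at -0.42, -0.44 and -0.51. Proliferation markers moved with this comparison, 5 of 10 being lower in colon, and so did smooth muscle, 4 of 9 being higher. Of all genes 8.40% were lower and 13.0% higher, and the part of these markers was not tested. Of the other synthesis enzymes Hsd17b7 and Sc5d were lower in colon, by -0.77 and -0.60, and Dhcr7 was higher (1.503 ± 0.23, adjusted p = 0.00792). The non-tumor colon arrays enter both this comparison and the tumor effect in colon, so the 2 results are not independent.

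Tumors of the 2 tissues had closer signals. Between colon and small intestine tumors 0 of 8 genes passed, where 5.76% of all genes were higher and 7.36% lower (median -0.03 beside 0.07), and 0 had an unadjusted p under 0.05 in limma. Fdps was at 0.43 ± 0.22 and Fdft1 at 0.37 ± 0.24 (adjusted p = 0.238 and 0.343). For these 2 genes both colon tumor arrays lay above both small intestine tumor arrays, as for 28.9% of all genes, and for Hmgcs1 below, as for 21.7%. With arrays centred on their medians the median over all genes was 0.18, and all calls over the tested genes split into 1053 higher and 819 lower, where the values as deposited gave 808 and 1032.

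Loss of ACKR2 was followed by no called change in the 8 genes. The ACKR2 pairs also differed in the sex of the pools, whose part was not tested. In tumors 0 of 8 passed, where 0% of all genes were higher and 0.0357% lower, and the median was -0.09 beside -0.03 over all genes. By the probe sets used, Insig1 had the largest difference, at 0.54 ± 0.20 (limma adjusted p = 0.285, unadjusted p = 0.0352, the 1 member under 0.05), with 0.54 in both the colon and the small intestine pair. Lss was at -0.42 ± 0.21 (adjusted p = 0.397). The other bright Lss probe set differed more, at -0.93 ± 0.27 in the fit of every probe set (adjusted p = 0.181), and the dim Hmgcs1 probe set was at -0.82 ± 0.41 (adjusted p = 0.364). In non-tumor tissue 0 of 8 passed, where 0.128% of all genes were higher and 0.556% lower. By the probe sets used, Lss was lowest at -0.64 ± 0.21 (limma adjusted p = 0.140, unadjusted p = 0.0240, the 1 member under 0.05), at least 1.5-fold lower in both pairs as were 8.12% of all genes. Insig1 followed in size at 0.23 ± 0.20. In the fit of every probe set the other Idi1 probe set was at 0.56 ± 0.17 (adjusted p = 0.0776) and the dim Hmgcs1 probe set at -1.20 ± 0.41 (adjusted p = 0.107). Across tumour states Insig1 was higher in all 4 arrays lacking ACKR2 than in the 4 with ACKR2 intact, as were 2.91% of all genes. The difference between the ACKR2 effects of tumors and of non-tumor tissue passed in 0 of 8 genes, where 0% of all genes were higher and 0.00713% lower, and 0 of 8 had an unadjusted p under 0.05 in limma.

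In non-tumor tissue the ACKR2 pairs of colon and small intestine pointed in opposite directions. Hmgcs1, Idi1, Fdps, Fdft1, Sqle and Cyp51 were lower in ACKR2-/- than in WT colon and higher in ACKR2-/- than in WT small intestine, 6 of 8 genes against 11.1% of all genes. Idi1 counts here by the probe set used. Its other probe set was higher in ACKR2-/- in both tissues, by 0.60 in colon and 0.52 in small intestine. The small intestine side rests wholly on the WT small intestine array, which went partly against its label, and has no value without it. In colon the 8 genes had a median of -0.24, with 7 below 0 (49.0% of all genes). In small intestine the median was 0.39, with 7 above 0 (43.3% of all genes). Fdft1 had the widest split, -0.30 in colon and 0.65 in small intestine, and Idi1 the narrowest of the 6, -0.18 and 0.000772. This split is the spread on which the limma model rests, so it could not be tested. In tumors the same ACKR2 comparison gave medians of 0.01 in colon and -0.25 in small intestine.

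The scale of the arrays moves with ACKR2 genotype. Centring arrays on their medians put the median log2 difference of all genes at 0.20 for ACKR2 loss in tumors and at 0.44 in non-tumor tissue, and calls over all genes in non-tumor tissue then split into 3639 higher and 175 lower, where the values as deposited gave 18 and 78. The medians of the 8 genes were then 0.20 in tumors and 0.65 in non-tumor tissue, and 4 of the 8 genes passed as higher in non-tumor tissue, Fdps, Fdft1, Cyp51 and Insig1. Srebf2 was lower in all 4 arrays lacking ACKR2, with 1059.7, 542, 841 and 872 against 1424, 1856, 1272 and 1740.2. The share of all genes lower in all 4 was not counted, and these arrays also had the lower median signals. Its log2 differences were -0.51 ± 0.22 in tumors and -1.39 ± 0.22 in non-tumor tissue (limma adjusted p = 0.338 and 0.0516).

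Over the 8 arrays the genes differed in how far they followed their common profile. The root mean square distance, on the log2 scale, between a gene's centred profile and the mean centred profile of the 8 genes was 0.163 for Cyp51, 0.184 for Sqle, 0.195 for Hmgcs1, 0.198 for Fdft1, 0.21 for Idi1, 0.317 for Lss, 0.397 for Insig1 and 0.414 for Fdps. Each gene is part of the mean it is set against, and the median over 14015 other genes was 0.484. Fdps had the widest range over the arrays, and the highest arrays of Insig1 were those lacking ACKR2. The 10 other genes nearest to the common profile were Mmgt2 (0.0502), Smarcd2, Hspd1, Dus2, Csnk1g1, Cgas, Rfc5, Cpsf3, Stard3nl and Kif4 (0.115). None of the other listed sterol genes was among them. All 10 had higher colon tumor averages, with log2 differences of 0.51 to 0.74, which follows from choosing them by this profile. By the same distance Cyp51, the nearest member, would rank 62 among the other genes and Fdps 5118.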

How the data were processed

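RNA pooled by genotype and tissue was hybridised to 8 Affymetrix arrays, 1 per group. The deposited values are linear signal intensities per probe set; MAS5 and Partek are named as tools in the submitters' processing notes, with no versions, and the genome build is not given in the sources used here. The mean signal of every array, without 2% of probe sets at each end, was 500. Precision is limited by the number of arrays.

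The platform annotation gives 34945 probe sets 1 gene, 932 several and 9160 none, and 64 are controls; a gene was taken only from a probe set assigned to it alone. Some listed genes are not reported here, and Lep did not pass the filter. From the deposited intensities, log2 values were taken after values under 64.1 (the median over arrays of the 40th percentile) were set to it. The probe set with the highest mean stood for its gene, and 14023 genes above the floor on at least 2 of 8 arrays were tested.

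A model with 6 coefficients, for the 4 combinations of tissue and tumour state and the ACKR2 effect in tumors and in non-tumor tissue, was fitted with limma 3.58.1 in R 4.3.3, with an empirical Bayes trend, on 2 residual degrees of freedom. Two-sided p-values were Benjamini-Hochberg adjusted over all tested genes, with a threshold of 0.05, and measure only the spread between these arrays. The script was tested on simulated data. Single arrays that share 2 of tissue, tumour state and ACKR2 genotype were also set against each other, without a test. The tumour pairs differ in the ApcMin/+ allele too, and the tumour and ACKR2 pairs differ in sex.

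The 8 genes and all lists were chosen with earlier results of these data known. Named by rule were all members, the 3 largest called tumor effects in each list and tissue, a fixed set of regulators, and the 10 genes nearest in profile; Tm7sf2, Mylip, Acly, Gpam, Hsd17b7 and Sc5d were added after their values were seen, to complete short counts. Probe sets ending in _x_at, _s_at or _a_at can match several transcripts. Alternatives changed the floor, the filter, the normalization, the probe set used, the model, the trend, the fold threshold and the arrays; the ACKR2-/- pairs alone were added after seeing the data.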

Additional observations from a re-analysis of the deposited data

Results flagged for a closer look

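By the probe set used, Hmgcs1 moved in opposite directions in the tumors of the 2 tissues, up in both colon pairs and down in both small intestine pairs. In the ACKR2 intact small intestine pair it differed by only -0.03. There the other bright probe sets gave -0.09, 0.29 and 0.14, so the probe sets do not share 1 direction in that pair. The averages differed by 0.64 on the log2 scale, colon minus small intestine, and the test of this difference did not pass (limma adjusted p = 0.303).

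Several genes had ACKR2 differences of opposite sign in colon and small intestine, each from 1 pair of arrays; these differences between tissues were not tested. In non-tumor tissue the ACKR2 difference in colon minus that in small intestine was -0.948 for Fdft1, -0.769 for Fdps, -0.713 for Hmgcs1, -0.694 for Sqle, -0.668 for Cyp51 and -0.181 for Idi1. The other Idi1 probe set had no such split, with 0.60 in colon and 0.52 in small intestine. In tumors it was 0.513 for Cyp51, 0.387 for Fdps, 0.311 for Fdft1 and -0.0302 for Hmgcs1.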

How the results depend on the processing

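Among counts and medians of the 8 genes under alternatives that keep all arrays, 23 moved and 294 did not. A count was held to have moved if it changed more than 1.5-fold or to or from 0. A median was held to have moved if it changed by at least 0.22 on the log2 scale. Smaller changes, among them changes of sign, are thus within the 294. Counts with every probe set fitted on its own are by the probe set used for each gene. Small medians changed sign: centring gave -0.09 for small intestine tumors (0.10 as deposited), 0.20 for ACKR2 loss in tumors (-0.09) and 0.09 for colon minus small intestine in tumors (-0.03), where the mean of all probe sets gave 0.05; 1 ACKR2 effect for all arrays gave 0.01 for ACKR2 loss in tumors, and quantile normalization -0.06 in non-tumor tissue (0.10). Members rising in tumors averaged over both tissues numbered 1, but 3 with no floor, with quantile normalization or with 1 ACKR2 effect for all arrays, 4 with only genes above the floor in all 8 arrays, 2 without the variance trend and 0 with no filter. Members rising in colon tumors numbered 3, but 1 with the mean of all probe sets and 0 with no filter. With no filter the colon tumor calls over all 18193 genes were only 36 higher and 51 lower, and the reason was not tested. Members lower in non-tumor colon than in small intestine numbered 3, but 1 with quantile normalization. By the probe sets used there was 1 with every probe set fitted on its own, where another Hmgcs1 probe set also passed. There were 0 with no filter, with the mean of all probe sets or without the trend. The median of the 8 genes was -0.39 with the mean of all probe sets. Centring on array medians gave member medians for ACKR2 loss of 0.65 in non-tumor tissue (4 higher) and -0.35 for their difference. It also gave 2 members 2-fold higher in both colon tumor pairs, with the share of all genes not counted. At 1.5-fold, with the values as deposited, there were 3 such members (11.3% of all genes), and 1 lower after ACKR2 loss in non-tumor tissue (8.12%). The ACKR2-/- pairs alone, added after seeing the data, gave 3 members 2-fold higher in colon tumors, where 9.81% of all genes were. They gave 5 members 2-fold lower in non-tumor colon, where 7.41% of all genes were. A single pair is a looser rule than both pairs. The looser sterol element matched 2 promoters in place of 1. Beyond the stated constructions the cause was not tested.

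With any array left out, 1 residual degree of freedom remained and the member counts were 0 to 0 in every comparison. Calls over all 14023 genes were then 0 too, except 16 to 20 higher and 40 to 47 lower for non-tumor colon minus small intestine when the ACKR2-/-ApcMin/+ colon, ApcMin/+ colon or ApcMin/+ small intestine tumor array was left out. Fdps in colon tumors then lay between 1.29 and 2.06 (limma adjusted p = 0.0763 to 0.261). The member medians ran from 0.24 to 0.42 for tumors averaged over tissues, 0.35 to 0.80 in colon, -0.24 to 0.31 in small intestine, 0.33 to 1.002 for the difference between tissues, -0.25 to 0.01 for ACKR2 loss in tumors, -0.24 to 0.39 in non-tumor tissue, -0.42 to 0.19 for their difference, -1.06 to -0.29 for colon minus small intestine in non-tumor tissue and -0.05 to 0.10 in tumors. Over all genes, centring split the calls into 254 higher and 221 lower in small intestine tumors (389 and 168 as deposited), 1333 and 1891 in the average (1844 and 1679), 116 and 111 for the difference of tumor effects (103 and 213) and 1299 and 1255 for non-tumor colon minus small intestine (1821 and 1178). No paired analysis of animals was possible because each group was 1 array of pooled RNA. Only the comparison of tissues within each of the 4 genotypes remained, which the terms of the model already make.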
